A study of Mus musculus with 2 samples.

Results

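Replication-dependent histone genes encode the linker histone H1 and the core histones H2A, H2B, H3 and H4 that package newly made DNA. They were taken here as every gene whose symbol in the deposited table starts with Hist1h, Hist2h, Hist3h or Hist4h, which gave 65 of 23157 genes and 73 of 64053 transcripts. No symbol starting with Hist4h was listed, and the 65 genes comprised 6 of class H1, 18 of H2A, 17 of H2B, 12 of H3 and 12 of H4. The table came from strand-specific RNA-seq of mouse distal forelimbs of E12.5 embryos (C57Bl6CBAF1 strain), with 1 library for wild type and 1 for HoxD Inv(TpSB1-Itga6). This allele inverts 2.4 Mb of chromosome 2, which moves digit enhancers away from the HoxD cluster, and the study's methods describe its mutant tissues as coming from homozygous embryos. Each library was made from a pool of 3 pairs of forelimbs, and both were prepared with poly(A) selection.

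Most mRNAs carry a poly(A) tail, whereas replication-dependent histone mRNAs usually end in a conserved stem-loop that is bound by SLBP, the stem-loop binding protein, and are cut a few bases after it without receiving a tail. They are produced during S phase, when chromatin is assembled on new DNA, and degraded when replication stops, so that a growing tissue such as the limb bud needs them in quantity. Selection on poly(A) is known to retain them poorly, except for members that also use a polyadenylation signal downstream of the stem-loop, and the histone values therefore describe what the selection kept rather than the histone mRNA content of the tissue.

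The capitals in the following lines mark the stem-loop or, for the lines named so, the polyadenylation signal. They are shown because these are the alternative ends around which the values are ordered. All come from transcripts of GENCODE M21 (assembly GRCm38), a later annotation than the one used for mapping. Hist3h2a, Hist1h1c, Hist1h4i and Hist3h2ba run on past their stem-loop, whereas Hist1h2ag, Hist1h2ab, Hist1h4b and Hist1h4m end within 30 bases of it.
Hist3h2a stem-loop: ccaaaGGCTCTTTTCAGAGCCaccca
Hist3h2a polyadenylation signal: gtatatgcccAATAAAataagagtac
Hist1h1c stem-loop: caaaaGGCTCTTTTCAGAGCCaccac
Hist1h1c polyadenylation signal: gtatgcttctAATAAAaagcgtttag
Hist1h4i stem-loop: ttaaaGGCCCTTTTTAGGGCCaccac
Hist1h4i polyadenylation signal: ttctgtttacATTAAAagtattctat
Hist3h2ba stem-loop: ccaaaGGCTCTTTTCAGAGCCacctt
Hist3h2ba polyadenylation signal: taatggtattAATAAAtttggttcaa
Hist2h2be polyadenylation signal: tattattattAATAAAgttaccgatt
Hist1h2ag stem-loop: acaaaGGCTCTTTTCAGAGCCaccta
Hist1h2ab stem-loop: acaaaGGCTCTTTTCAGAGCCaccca
Hist1h4b stem-loop: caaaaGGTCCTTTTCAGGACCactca
Hist1h4m stem-loop: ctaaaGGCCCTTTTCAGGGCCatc

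The recovered reads summed to 9280660 in the wild-type and 9466154 in the inversion library. Because there was 1 library per genotype, no difference has a replicate check. The 95% intervals given with log2 ratios are exact Clopper-Pearson intervals, reflect the error of counting alone and set one library against the other rather than one genotype against the other. Distal forelimb identity was seen in both, with Hoxd13, a digit gene, at 2264 and 1522 reads and Tbx5, a forelimb gene, at 1663 and 1959 reads in wild type and inversion, although the hindlimb gene Tbx4 was also present at 430 and 394 reads. The pools differed in sex-linked genes, as Xist, the RNA that coats the inactive X chromosome, had 2607 reads in the wild-type and 13 in the inversion library, and the Y-linked Kdm5d had 270 and 909, so that genotype and the sex of the embryos cannot be told apart. Markers of other cells were found on both sides. All 7 erythroid genes were lower in the inversion library, with a log2 ratio of -0.22 for their summed reads, and the muscle genes summed to 342 and 496 reads, and the part of these differences in the histone values was not tested.

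All member genes combined contributed 1103 reads to the wild-type and 1045 to the inversion library. This corresponded to 0.0119% of all reads (exact interval 0.0112% to 0.0126%) in wild type and to 0.0110% (0.0104% to 0.0117%) in the inversion. After the authors' scaling, the sums were 1117 and 1032 normalized reads which gave a log2 ratio (inversion over wild type) of -0.11 (95% interval -0.24 to 0.01). The interval included 0. This depended on the sparse and renamed transcripts, as the 16 members with a mean of at least 10 alone gave -0.14 (95% interval -0.27 to -0.01), and the 51 transcripts that are protein-coding under the same symbol in GENCODE M21, an alternative chosen after seeing the data, gave -0.17 (95% interval -0.30 to -0.04) from 998 and 908 reads. Of the 16, Hist1h1b and Hist1h1a reached 10 normalized reads in the wild-type library only. In such bulk tissue, fewer cells that make histone mRNA and less of it per cell cannot be told apart.

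The reads were concentrated in a few genes. Only 3 members, namely Hist2h2be, Hist1h1c and Hist3h2a, reached a mean of 100 normalized reads, and these held 52.7% of all member reads in the wild-type and 54.9% in the inversion library. A further 13 had a mean between 10 and 100, and the remaining 49 were below 10. The latter, 49 of the 65 genes, summed to 158 and 166 reads in all. No reads were seen for 7 members in the wild-type library and for 4 in the inversion library, which allows for up to 3 reads each, and 24 members had at most 3 reads in both. Every listed member had a read in at least 1 library, as did all 23157 genes, because the table lists only transcripts with such a read.

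**Figure D1:**
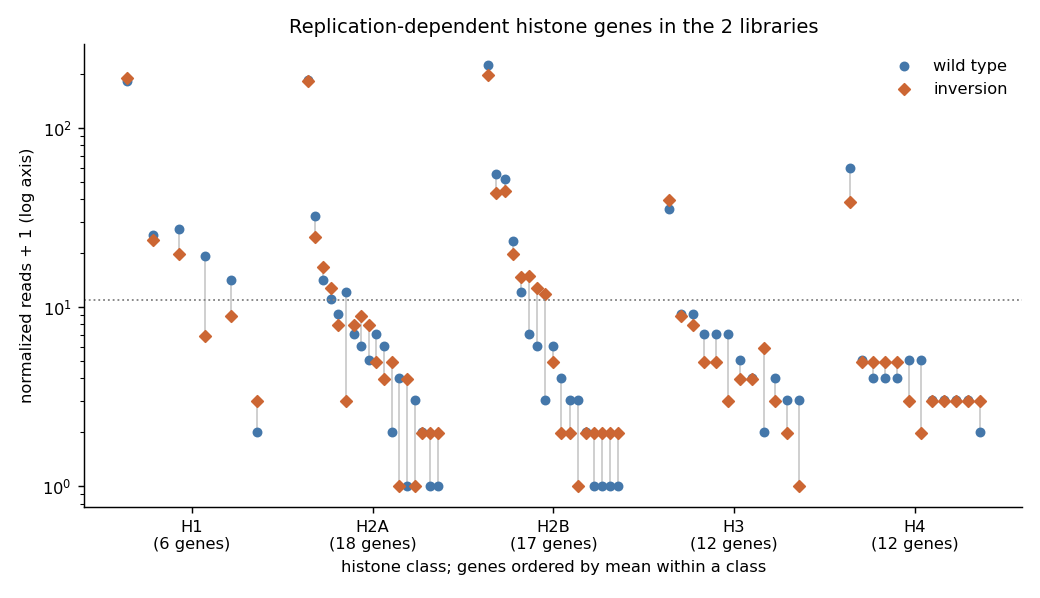
Normalized reads plus 1 (log axis) of the 65 member genes in the wild-type (circles) and inversion (diamonds) library, grouped by histone class; a grey line joins the values of 1 gene and the dotted line marks 10 normalized reads. In classes H3 and H4 a single gene stands above the line, Hist2h3c1 and Hist1h4i respectively, and most genes lie far below it.

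Among the linker histones, which bind the DNA entering and leaving the nucleosome, Hist1h1c (the H1.2 subtype) had 181 normalized reads in the wild-type and 189 in the inversion library. The gene is at chr13:23738808-23740367 (GRCm38, plus strand, 1 exon), and its log2 ratio was 0.06 (95% interval -0.24 to 0.36). Its levels were nearly the same. Hist1h1d had 24.3 normalized reads for wild type and 22.7 for the inversion. Hist1h1e had 26.3 and 18.8, respectively, with a log2 ratio of -0.47 (95% interval -1.42 to 0.42). These intervals also included 0.

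Hist1h1b, the H1.5 subtype, showed the lowest ratio of the members with a mean of at least 10. It had 18 reads in the wild-type and 6 in the inversion library, that is 18.2 and 5.93 normalized reads. This gave a log2 ratio of -1.47 with a 95% interval from -3.24 to -0.23, which was below 0. The gene is at chr13:21779883-21780625 (GRCm38, minus strand, 1 exon). In an exact binomial test on the reads of these libraries, with Benjamini-Hochberg adjustment over all genes with a mean of at least 10, the adjusted p was 0.0629, and the difference therefore did not pass 0.05. Hist1h1a, outside the genes named by rule and chosen after its values were seen, had 13 and 8 reads (log2 ratio -0.67, 95% interval -2.21 to 0.64). The testis-specific Hist1h1t had 1 and 2 reads.

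As a class, H1 counted 261 wild-type and 249 inversion reads, with a log2 ratio of the normalized sums of -0.10 (95% interval -0.36 to 0.15). This sum was dominated by Hist1h1c. Without it, the remaining 5 genes had 82 and 58 reads and a log2 ratio of -0.54 (95% interval -1.05 to -0.03), and all 4 of them that had a mean of at least 10 were lower in the inversion library. Of these 4, Hist1h1b and Hist1h1a reached 10 normalized reads in the wild-type library only, with 5.93 and 7.9 in the inversion library.

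Among the H2A genes, which encode a core histone that pairs with H2B, Hist3h2a was by far the most abundant, with 183 normalized reads in the wild-type and 182 in the inversion library. Its log2 ratio was -0.01 (95% interval -0.32 to 0.29). The gene is at chr11:58954685-58956830 (GRCm38, plus strand, 1 exon), and 29.8% of its 100-base stretches also occur in transcripts of other genes. A transcript of its neighbour Trim17, which also contains the stem-loop, had 88 and 104 reads, so that the assignment of reads between both genes is uncertain. Hist1h2ac had 31.4 and 23.7 normalized reads, with a log2 ratio of -0.39 (95% interval -1.24 to 0.41). Hist1h2ai, at 13.2 and 15.8, was slightly higher in the inversion library (log2 ratio 0.25, 95% interval -0.89 to 1.44). The 18 genes of the class summed to 287 and 284 reads (log2 ratio -0.05, 95% interval -0.29 to 0.19).

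The H2B genes took the largest share, 34.8% of the wild-type and 35.1% of the inversion reads of members. Hist2h2be had 224 normalized reads in the wild-type and 197 in the inversion library, the highest mean of all 65 genes. It is located at chr3:96221119-96223738 (GRCm38, plus strand, 1 exon). Its log2 ratio of -0.19 (95% interval -0.47 to 0.10) did not differ from 0 beyond counting error. Hist1h2bc, whose annotated transcript is spliced from 2 exons, had 54.7 and 42.5 normalized reads, with a log2 ratio of -0.36 (95% interval -0.98 to 0.24). Hist3h2ba had 50.6 and 43.5, with a log2 ratio of -0.22 (95% interval -0.84 to 0.39). All 3 were thus lower in the inversion library, each within its counting error. The class summed to 384 and 367 reads (log2 ratio -0.10, 95% interval -0.31 to 0.11), and its ratio was 0.01 without Hist2h2be.

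The H3 and H4 genes, which together form the core tetramer of the nucleosome, were sparsely represented. Of the 12 H3 genes, only Hist2h3c1 had a mean of at least 10, with 34.4 normalized reads for wild type and 38.5 for the inversion library (log2 ratio 0.16, 95% interval -0.54 to 0.87). This value is uncertain, because nearly all of its reads were assigned to a transcript that GENCODE M21 names Gm20634, a processed transcript of chr3:96245554-96248509 that overlaps the Hist2h2aa2 transcript on the same strand. The next genes, Hist1h3d with 8 and 8 reads and Hist2h3c2-ps with 8 and 7 reads, were at equal or nearly equal values. The class summed to 83 and 78 reads (log2 ratio -0.13, 95% interval -0.59 to 0.34), and its ratio was -0.37 without Hist2h3c1 and -0.58 with only the transcripts that are protein-coding under the same symbol in GENCODE M21.

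Hist1h4i was likewise the only one of the 12 H4 genes with a mean of at least 10. It had 58 reads in the wild-type and 38 in the inversion library, or 58.7 and 37.5 normalized reads. This gave a log2 ratio of -0.63 with a 95% interval from -1.28 to -0.03, and the adjusted p of the exact binomial test over all genes was 0.121. The gene is at chr13:22040636-22041362 (GRCm38, minus strand, 1 exon). Hist1h4j, with 4 and 4 reads, and Hist1h4c, with 3 and 4 reads, came next. With Hist1h4i holding most of its reads, the class had the lowest ratio of the 5, with 88 and 67 reads and a log2 ratio of -0.43, although its 95% interval of -0.91 to 0.05 included 0. Without Hist1h4i the ratio was -0.08, and this order of the classes did not hold when each class was taken without its most read gene.

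Over the 16 members with a mean of at least 10, the median log2 ratio was -0.20, compared with -0.02 for the 16756 genes tested, and 5 members were higher and 11 lower in the inversion library. None was at least 2-fold higher, where 3.99% of all genes tested were, and 1 (Hist1h1b) was at least 2-fold lower, where 0.483% were. Hist1h1b and Hist1h1a, both counted as lower, reached 10 normalized reads in the wild-type library only. The intervals of 14 of the 16 included 0, whereas those of Hist1h1b and Hist1h4i were below 0 and none was above. The exact binomial test, which compares these libraries only, gave an adjusted p under 0.05 for 0 of the 16 members and for 20.2% of all genes tested. At an unadjusted p under 0.05 there were 2. With 49 of the 65 genes below the filter, these figures describe the better covered members only. Even these 16 had a median of 28.5 wild-type and 23.5 inversion reads, whereas 11831 of the 16756 genes tested averaged at least 100 normalized reads. A count test calls fewer differences at low reads, so the share of members called is not directly comparable with that of all genes.

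**Figure D2:**
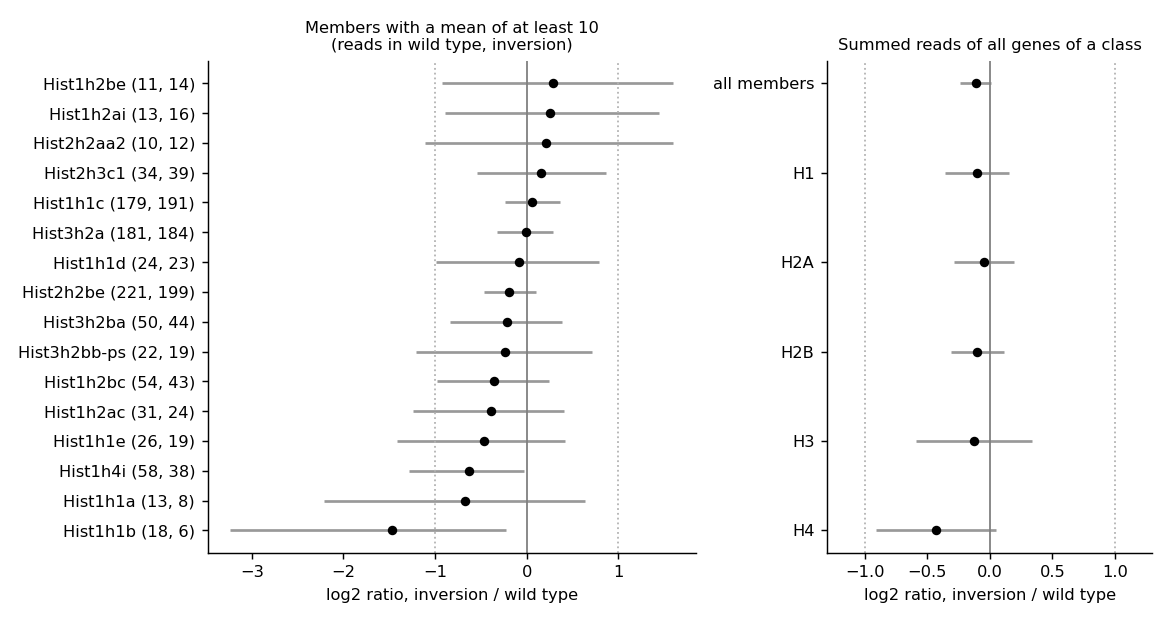
Log2 ratio of inversion over wild type with its 95% counting interval (bars) for the 16 members averaging at least 10 normalized reads (left; reads in wild type and inversion in parentheses) and for the summed reads of all members and of each class (right). Dotted lines mark a 2-fold difference; the intervals of Hist1h1b and Hist1h4i end below 0, and those of all 5 classes cross it.

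Below this filter, larger ratios went in either direction at very few reads, and the genes given here were chosen after their values were seen. Hist1h2ae had 11 reads in the wild-type and 2 in the inversion library (95% interval of the log2 ratio -5.71 to -0.30). In contrast, Hist2h2bb had 2 and 11 reads (0.23 to 5.64), and its listed transcript is annotated in GENCODE M21 as the lincRNA Gm42743. Hist1h2bq with 6 and 14 reads, and Hist1h2br with 5 and 12 reads, were higher in the inversion library, yet their intervals of -0.28 to 2.85 and -0.38 to 3.08 included 0. The protein-coding Hist1h2bq transcript shares 100% of its 100-base stretches with other genes, and reads of both may therefore have been exchanged.

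Such sharing is general in this family. Of the 65 member transcripts that were found in GENCODE M21, 59 had at least 1 stretch of 100 bases, the length of a read, that also occurs in a transcript of another gene, and in 26 of them at least 50% of the stretches did. The median was 37.1%. Hist1h1b, Hist1h1a and Hist2h2be were among the 6 with no shared stretch. How reads that fit several genes were distributed is not given in the sources used here.

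By location, none of the 65 genes lies on chromosome 2, which carries the inversion. The 53 Hist1 genes, on chromosome 13, had 558 reads in the wild-type and 509 in the inversion library, which gave a log2 ratio of -0.17 (95% interval -0.34 to 0.01). Apart from the pseudogene Hist1h2al, their annotated transcripts were within chr13:21716422-23764406 (GRCm38). The 9 Hist2 genes of chromosome 3 had 292 and 289 reads (log2 ratio -0.05, 95% interval -0.29 to 0.19). For the 3 Hist3 genes of chromosome 11, the sums were 253 and 247 reads and the log2 ratio was -0.07 (95% interval -0.33 to 0.19). The clusters were therefore all slightly lower, within their counting error.

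The annotated 3′ ends were then used to ask which members were represented after poly(A) selection. The stem-loop was searched on the transcript strand as a run of 16 bases, in which 2 G, 3 pyrimidines and a loop of mostly T are followed by 3 purines and 2 C. It was found in 43 of the 65 member transcripts (66.2%) and in 31 of the 56386 other transcripts of the table (0.055%). The H4 genes had a stem of their own. All 11 H4 stem-loops began with GGCC or GGTC, whereas all 32 of the other classes began with GGCT. The signals AATAAA and ATTAAA, in the last 50 bases of a transcript on the same strand, were found in 17 member transcripts (26.2%) and in 44.7% of the others.

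None of the 9 transcripts that end within 30 bases of the stem-loop reached a mean of 10 normalized reads. They held 25 reads in the wild-type and 21 in the inversion library, 2.27% and 2.01% of all member reads, and at most 8 reads in any of them. Of the 12 that end 31 to 100 bases past it, 1 (Hist2h2aa2) reached this mean. Conversely, 8 of the 22 transcripts that run on by more than 100 bases did so, and these 22 held 58.9% and 59.2% of the member reads. The 22 transcripts without a match to the stem-loop, among them Hist2h2be and several annotated by their coding part only, held most of the rest, with 33.5% and 32.1%.

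To allow for transcript length, levels were expressed as normalized reads per kilobase of annotated transcript. The 5 highest of the 65 transcripts were the same in both libraries, and all 5 carried one of the signals. Hist1h1c had 116 normalized reads per kilobase in wild type and 121 in the inversion library, and runs on for 840 bases after the stem-loop. Hist3h2a, with 1643 bases, had 85.4 and 84.7 per kilobase. Hist2h2be, without a match to the stem-loop, had 85.4 and 75.0. Hist3h2ba, with 169 bases, had 82.5 and 70.8, and Hist1h4i, with 330 bases, had 80.8 and 51.6. The transcript that followed, the pseudogene Hist3h2bb-ps, had 47.9 and 40.3 and no such signal.

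Neither a long extension nor a signal was always accompanied by a high level. Hist1h1d, annotated with 4884 bases after the stem-loop, had 3.27 normalized reads per kilobase in wild type and 3.06 in the inversion library. The median over the 22 long transcripts was 6.22 and 4.77 per kilobase, close to the 5.05 and 4.93 of the 9 that end at the stem-loop, so that the excess of the former rested on a few genes. Across the 17400 genes for which all transcripts had a length, the median was 56.0 and 62.7 per kilobase. Of the 58 members among them, 5 were above this median in wild type and 4 in the inversion library, and their own median was 5.21 and 4.87. The ends are those of GENCODE M21, and the ends used by the RNA of these limbs were not measured.

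**Figure D3:**
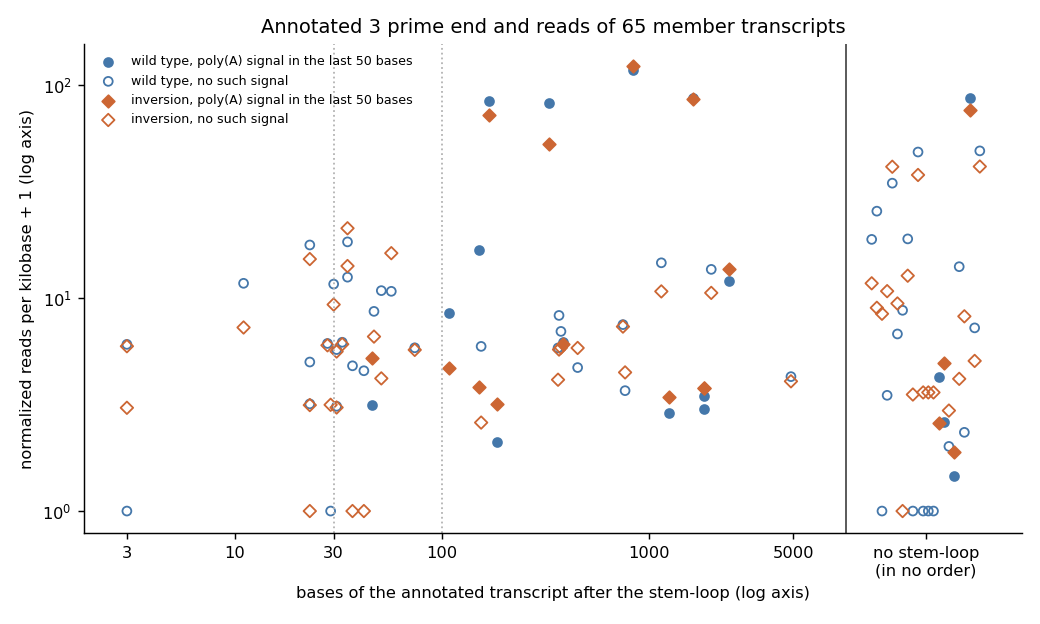
Normalized reads per kilobase plus 1 (log axis) of 65 member transcripts against the number of annotated bases after the stem-loop (log axis), with transcripts lacking a stem-loop at the right in no order. Filled symbols carry AATAAA or ATTAAA in their last 50 bases, and dotted lines mark 30 and 100 bases; the 5 highest transcripts in each library are filled, and none lies within 100 bases of the stem-loop.

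The proportions between end types were alike in the libraries. Transcripts ending within 30 bases of the stem-loop had a log2 ratio of summed reads of -0.29 (95% interval -1.20 to 0.61), and those running on by more than 100 bases had -0.11 (95% interval -0.27 to 0.05). The 5 members known to make polyadenylated mRNA too, Hist1h1c, Hist1h2bc, Hist2h2be, Hist3h2a and Hist3h2ba, held 62.1% of the wild-type and 63.3% of the inversion reads of members, and their summed ratio was -0.09 (95% interval -0.24 to 0.07). The 60 other members had 418 and 384 reads and a log2 ratio of -0.16 (95% interval -0.36 to 0.04), an interval that overlaps the former.

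The summed reads of other RNAs that lack a poly(A) tail had a higher ratio, and most of these reads came from 1 gene. On a list of small nuclear and other untailed RNAs, the 78 entries found, each a symbol on 1 chromosome, summed to 1553 reads in the wild-type and 3252 in the inversion library, which gave a log2 ratio of 1.03 (95% interval 0.94 to 1.12). Most of these came from Malat1, a nuclear RNA with an end protected by a triple helix, chosen here after its values were seen, with 1365 and 2861 reads. Its own log2 ratio was 1.03 (95% interval 0.94 to 1.13), the same as that of the whole list. The ratio of the list therefore did not rest on Malat1. Of the 7 entries with a mean of at least 10, 4 were higher and 3 lower, with a median log2 ratio of 0.20. At least 2-fold higher were 3, Malat1 and the entries of U6, a spliceosomal RNA, on chromosomes 4 and 11. Of all genes tested, 3.99% were. These U6 entries, with 6 and 22 and with 8 and 20 reads, reached 10 normalized reads in the inversion library only. The highest ratio was that of U6 on chromosome 4, and the lowest was that of RNase_MRP with 16 and 12 reads. The part of this difference between the libraries in the histone values was not tested.

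The replication-independent variants, whose mRNAs are polyadenylated, provide the counterpart. All 11 of the listed variants that were found had a mean of at least 10, with a median log2 ratio of -0.01 and no gene at least 2-fold higher or lower. H3f3b, which encodes H3.3, had 882 reads in the wild-type and 947 in the inversion library, which gave a log2 ratio of 0.07 (95% interval -0.07 to 0.20) that was -0.04 with its most read transcript alone. H3f3a, the other H3.3 gene, had 131 and 166 reads (log2 ratio 0.30, 95% interval -0.03 to 0.65), but its most read transcript alone gave -0.07. Per kilobase, H3f3b had 455 and 525 normalized reads, and H2afy, a macroH2A gene chosen after its values were seen, 1320 and 1350, compared with 116 and 121 for Hist1h1c, the highest of the members. Not every variant exceeded Hist1h1c. H3f3a had 47.6 and 92.7 per kilobase, and H2afj, also chosen after its values were seen, had 90.1 and 84.1.

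H2afx, the H2A.X variant that is phosphorylated at DNA breaks, contains a stem-loop as well, 822 bases before its annotated end. It had 731 and 683 reads, with a log2 ratio of -0.13 (95% interval -0.29 to 0.02). H2afz, the H2A.Z variant of promoters, had 328 and 441 reads and was the highest of the list, with a log2 ratio of 0.39 (95% interval 0.18 to 0.60) and an adjusted p of 0.00196 in the exact binomial test of the libraries. Its most read transcript alone had a log2 ratio of 0.05, so this difference depended on how transcripts were summed.

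No gene of the machinery of histone mRNA was 2-fold different between the libraries, although several differed beyond counting error, as did many genes outside it. In the exact binomial test, 20.2% of all genes tested had an adjusted p under 0.05, 12.3% higher and 7.87% lower. Npat, the coactivator of histone gene transcription, had 986 and 1012 reads (log2 ratio 0.00, 95% interval -0.13 to 0.13). The 7 genes in this list ranged from Ccne2, encoding cyclin E2, at -0.28 to Hinfp, an H4 gene transcription factor, at 0.15, and in the exact binomial test of the libraries 1 of them, Ccne2, was lower with an adjusted p of 0.0171. Slbp had 464 and 483 reads (log2 ratio 0.02, 95% interval -0.16 to 0.21). The 12 genes of 3′ end processing had a median of -0.08, from Ncbp1, a subunit of the cap-binding complex, at -0.24 to Zfp473, a component of the U7-dependent cleavage machinery, at 0.53 with 82 and 122 reads. Ncbp1 (lower, adjusted p 5.56e-07) and Zfp473 (higher, adjusted p 0.0476) passed the exact binomial test, and the summed reads of the list had a log2 ratio of -0.07 (95% interval -0.10 to -0.03). Among the 6 genes of histone mRNA decay, the median was 0.05, from Xrn1, a 5′ exonuclease, at -0.06 to Zcchc6, a uridyl transferase, at 0.22, which was 0.91 with its most read transcript alone. In the exact binomial test 3 of the 6, Zcchc6, Zcchc11 and Upf1, were higher with an adjusted p under 0.05, and the summed reads had a log2 ratio of 0.07 (95% interval 0.03 to 0.11). Zcchc11 and Upf1 were chosen after their values were seen.

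Genes of DNA replication and histone chaperones were on balance slightly lower in the inversion library. Of 39 replication genes, 29 were lower and 10 higher, with a median log2 ratio of -0.15 and a range from Rrm1, a subunit of ribonucleotide reductase, at -0.39 (4264 and 3332 reads) to Rpa3, of the single-strand binding complex, at 0.14, which was -0.10 with its most read transcript alone. None reached 2-fold. In the exact binomial test of the libraries, 15 of the 39 were lower with an adjusted p under 0.05 and 0 were higher, compared with 7.87% and 12.3% of all genes tested, respectively. Pcna, the sliding clamp of replication, had 764 and 824 reads and a log2 ratio of 0.07 (95% interval -0.07 to 0.22), yet its most read transcript alone gave -0.27. Of the 13 chaperone genes, 12 were lower, with a median of -0.13, from Asf1b, an H3-H4 chaperone, at -0.33 to Atrx, an H3.3 deposition factor, at 0.03, and 5 passed the test, all lower. The log2 ratio of summed reads was -0.16 for the replication genes, -0.11 for the chaperones and -0.11 for all members (95% interval -0.24 to 0.01). The median of the members with a mean of at least 10 was -0.20. Whether these values are related was not tested.

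**Figure D4:**
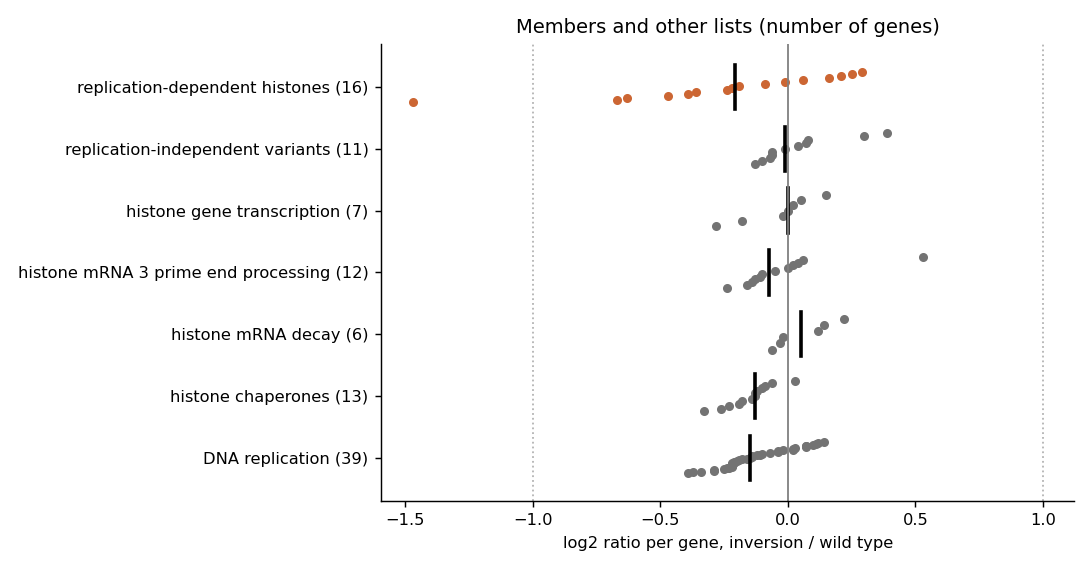
Log2 ratio of inversion over wild type for each gene averaging at least 10 normalized reads, for the replication-dependent histone genes (orange) and 6 other gene lists (grey), with the number of genes in parentheses. Black bars are medians and dotted lines mark a 2-fold difference; Hist1h1b, at -1.47, is the only gene shown beyond them.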

How the data were processed

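RNA-seq reads of 1 wild-type and 1 inversion library (TruSeq Stranded, poly(A)-selected, 100-bp single-end) were mapped by the authors to NCBIM37 and assigned to transcripts with the HTSstation pipeline, and Bowtie2 is named in the submitters' processing notes. The deposited signal columns hold, for each transcript, reads that the authors scaled by 1 factor per library, with 0.5 for no reads, read here as 0. The study's methods give RPKM, but the values do not depend on length. The deposited mean, fold change, log2 fold change, p-value and adjusted p-value columns of the authors were not used. No per-sample column was left out (0).

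Within a tolerance of 0.1 reads, 100% of the values above 0.5 were whole reads, with 1 read worth 1.013 in the wild-type and 0.9876 in the inversion library. Wild-type values come from a column named wtDFL, whereas the sample is titled wtFL. Its labels give distal limb as the tissue, and the column was assigned by its group. Transcripts that share a symbol and a chromosome were added up as 1 gene, and log2 ratios were taken with a pseudocount of 1, which understates differences of genes with few reads, for genes averaging at least 10 normalized reads. The table starts from transcripts with a read in at least 1 library. Ratios of sums and intervals had no pseudocount. An exact two-sided binomial test with Benjamini-Hochberg adjustment was run on the recovered reads as an alternative. Ends, lengths and positions were taken from GENCODE M21 (GRCm38) by transcript identifier, which matched 88.1% of transcripts, and no coordinate was converted. The distance past the stem-loop is counted from the first match.

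The members and lists were chosen with earlier results of these data known. Named genes are the 3 members with the highest mean per class, members at least 2-fold different with a mean of at least 10, the 5 known to be polyadenylated too, the highest and lowest gene of the other lists, and Slbp, Npat, H2afx, H2afz, H3f3a, H3f3b and Pcna. Alternatives were total and upper quartile scaling, pseudocounts of 5 and 0.1, the transcript with the highest mean, no filter, a mean of at least 100, thresholds of 1.5-fold and 4-fold, sums without the top gene and a total without the 10 genes with the most reads. Added after seeing the data were an end within 100 bases and, for members, only transcripts that are protein-coding under the same symbol in GENCODE M21. The steps were checked on simulated libraries. The scripts ran under Python 3.11.15 with scipy 1.17.1, numpy 2.4.6, pandas 2.3.3 and matplotlib 3.10.9.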

Additional observations from a re-analysis of the deposited data

How the results depend on the processing

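No paired analysis was possible because each genotype had 1 library and no result came from a replicated test. For the same reason no library could be left out. The median log2 ratio of the members was -0.03 without a filter and -0.01 at a mean of at least 100, which left 65 and 3 members, and stayed between -0.22 and -0.13 under the other alternatives. The number at least 2-fold higher was 1 with upper quartile scaling (Hist1h2bq, with a mean that then reached 10) and 6 without a filter. The number at least 2-fold lower was 9 without a filter, 0 at a mean of at least 100, 3 at the 1.5-fold threshold (Hist1h1a, Hist1h1b and Hist1h4i), and 0 at 4-fold and in the binomial test. The class ratio of H1 was -0.54 without Hist1h1c. For the untailed RNAs, the median was 0.99 without a filter, under which all 78 entries count. An entry with 0 wild-type reads and 1 inversion read, such as U6 on chromosome 14, has this same value through the pseudocount. Of the 78 entries, 71 had a mean under 10, 29 lacked wild-type reads and 5 lacked inversion reads. The unfiltered median therefore rests mostly on entries with very few reads and does not measure a 2-fold difference. The remaining 91 of 102 recomputed values stayed within counting error or within 1.5 times the count. Of 159 values of named genes, 5 changed sign, all with the transcript of the highest mean. H3f3a at -0.07 and Pcna at -0.27 left their counting interval, and H3f3b at -0.04, Rpa3 at -0.10 and Csf1r at 0.04 stayed in it. With the same alternative H2afz (0.05), Meis2 (-0.58) and Zcchc6 (0.91) kept their sign and left the interval. The cause was not tested.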

Other observations

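The stem-loop also occurred in 31 transcripts outside the histone genes of the rule, and 1 of them, H2afx, is a histone gene by name. In most it was far from the annotated end, as in Syncrip, Klf7 and Tmem164. The mRNA of Tmem164 with the most reads had 1213 in the wild-type and 1120 in the inversion library, and the stem-loop lies 164 bases before its end. Only 2 of the 31 ended within 30 bases of the match, namely Gm11533, a processed pseudogene with 0 and 1 reads, and a retained-intron transcript of Wdr4 with 44 and 35 reads.

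The lists used to describe the tissue gave the following further values. Among the distal forelimb genes, Hoxd12 was the lowest, at a log2 ratio of -0.86, and Tbx5 the highest, at 0.20. The proximal gene Shox2 had 376 and 724 reads (0.91) and Meis2 515 and 417 (-0.34). The hindlimb genes Tbx4 and Pitx1 had log2 ratios of -0.16 and -0.62. In the erythroid list, the ratios went from -0.27 for Hbb-y to -0.08 for Hba-x. The muscle genes ranged from Pax3 at -0.40 to Myog at 0.75, the endothelial genes from Pecam1 at -0.16 to Kdr at -0.04, the macrophage genes from Csf1r at -0.12 to Cd68 at 0.62, the ectodermal keratins from Krt14 at -0.24 to Krt5 at -0.22, and the neural crest genes from Sox10 at 0.05 to Foxd3 at 0.97.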
